A study of Mus musculus with 7 samples.

Results

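AMPA receptors carry most of the fast excitatory current at central synapses. The genes described here are the 4 that encode their pore subunits, Gria1, Gria2, Gria3 and Gria4, and 4 Cacng genes, Cacng2, Cacng4, Cacng5 and Cacng7, which encode transmembrane proteins that bind the receptor and change its trafficking and gating. The members are all probe sets that the platform annotation assigns to exactly 1 of these 8 genes, which gave 19 probe sets, against 11089 genes with a measurable probe set in the series. The members were chosen by gene family with their log2 signal differences between the sorted fractions on all 7 arrays known, so those differences are given as a description, without p-values.

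RNA was taken from granule neuron precursors, the dividing cells of the cerebellum that produce granule neurons, of mice carrying Math1-Cre, a loxp allele of the Hedgehog receptor gene Ptch1 (written Ptc-loxp in the sample labels) and a Nestin-CFP reporter. All 7 samples share this genotype and were neither cultured nor treated. By their labels they differ in the sort and in the replicate number: 4 are Nestin-positive (replicates 1, 3, 4 and 5) and 3 are Nestin-negative (replicates 1, 4 and 5). Math1-Cre acts in cells of the Math1 lineage, and no sample without the loxp allele is part of this comparison. Whether Ptch1 was lost in the sorted cells was not tested. The age is postnatal day 7 in the sample labels and postnatal day 4 in the series text, and the tissue is labelled medulloblastoma. Each sample was hybridised to 1 Affymetrix Mouse Genome 430 2.0 array, and the values are MAS5 signals, an intensity on a linear scale that differs in efficiency between probe sets, so levels are compared within a probe set only. Nothing in the labels says that the samples come from separate animals, so the spread between arrays may be partly technical, and the number of arrays limits the precision.

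As background, the 4 pore subunits assemble as tetramers. The Gria2 subunit, whose RNA is edited in the pore, makes the channel nearly impermeable to calcium, and receptors without it admit calcium, as in Bergmann glia, the radial astrocytes of the cerebellum. Cacng2 encodes stargazin, whose loss in stargazer mice removes AMPA currents from granule cells. Cacng2 and Cacng4 belong to the type I and Cacng5 and Cacng7 to the type II group of these auxiliary proteins.

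The sort was checked on Nes, the gene of the Nestin protein, whose signal was 478 to 829 on Nestin-positive and 174 to 217 on Nestin-negative arrays. The 8 markers of granule neuron precursors, Atoh1 and Barhl1 among them, lay at or above the array median on every array. Between the fractions, 4 of them had positive and 4 negative log2 differences, and limma called 0. With same-numbered samples as blocks, it called Atoh1, Ccnd1 and Barhl1 higher in Nestin-positive cells, where it called 3.58% of all genes higher. The array median, 64.4 to 94.5, serves here as the level under which a signal counts as dim. It was highest on replicate 1 of both fractions (93.7 and 94.5) and on Nestin-positive replicate 3 (84.1), against 64.4 to 74.3 on the other arrays. The ratio of 3' to 5' signal of the beta-actin control was 1.68 to 1.90 on Nestin-positive and 1.74 to 1.99 on Nestin-negative arrays. Markers of other cell types differed between the arrays. The 11 microglia markers summed to signals of 321 to 1160 on Nestin-positive and 2140 to 8262 on Nestin-negative arrays, with 0 to 6 of them at or above the array median on the former and 8 to 11 on the latter. The sums were 456 to 1795 against 1173 to 9084 for 8 pericyte markers and 964 to 2711 against 2184 to 8864 for 7 meningeal markers. Those of 6 GABAergic interneuron markers did not overlap, at 2877 to 3671 against 4329 to 5382, with 1 to 2 of the 6 at or above the array median on Nestin-positive and 3 to 5 on Nestin-negative arrays. For 7 endothelial markers the sums overlapped widely, at 287 to 1584 against 460 to 1674. For 5 Purkinje cell markers they were 865 to 1184 against 734 to 869. The mean log2 signal of these 5 relative to all arrays was -0.48 to -0.06 against -0.61 to 0.83. The sums of 2 unipolar brush cell markers, Eomes and Lmx1a, did not overlap, at 164 to 217 against 288 to 357. Their mean log2 signal relative to all arrays did, at -0.54 to 0.51 against -0.54 to 1.43, and Lmx1a lay below the array median on all 7 arrays. The part of these cells in any difference below was not tested, except where a value is given beside it. Fewer cells of a type and less RNA per cell cannot be told apart in such samples.

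Of the 19 member probe sets, 17 lay at or above the array median on at least 3 arrays, and each of the 8 genes had at least 1 of these. The remaining pair, 1426330_at of Cacng5 and 1426336_at of Cacng7, lay below the array median on all 7 arrays, and no fold is given for them. In the fit over all genes, 1 of the 8 members, Cacng5, passed an adjusted p of 0.05, where 0.748% of all genes did, and a fit with same-numbered samples as blocks passed 4 members, Gria2, Gria3, Cacng4 and Cacng5, where 9.97% of all genes did. These counts describe the choice of members and nothing is read from them. The Cacng5 call was lost on leaving out Nestin-positive replicate 5 or Nestin-negative replicate 4, where 0 genes were called. The unblocked fit over probe sets also called 0. Leaving out any other array called 1 to 97 genes, and whether Cacng5 was among them is not given here. The member genes had a median log2 difference of 0.00, with 4 positive and 4 negative, against -0.03 over all genes tested.

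**Figure D1:**
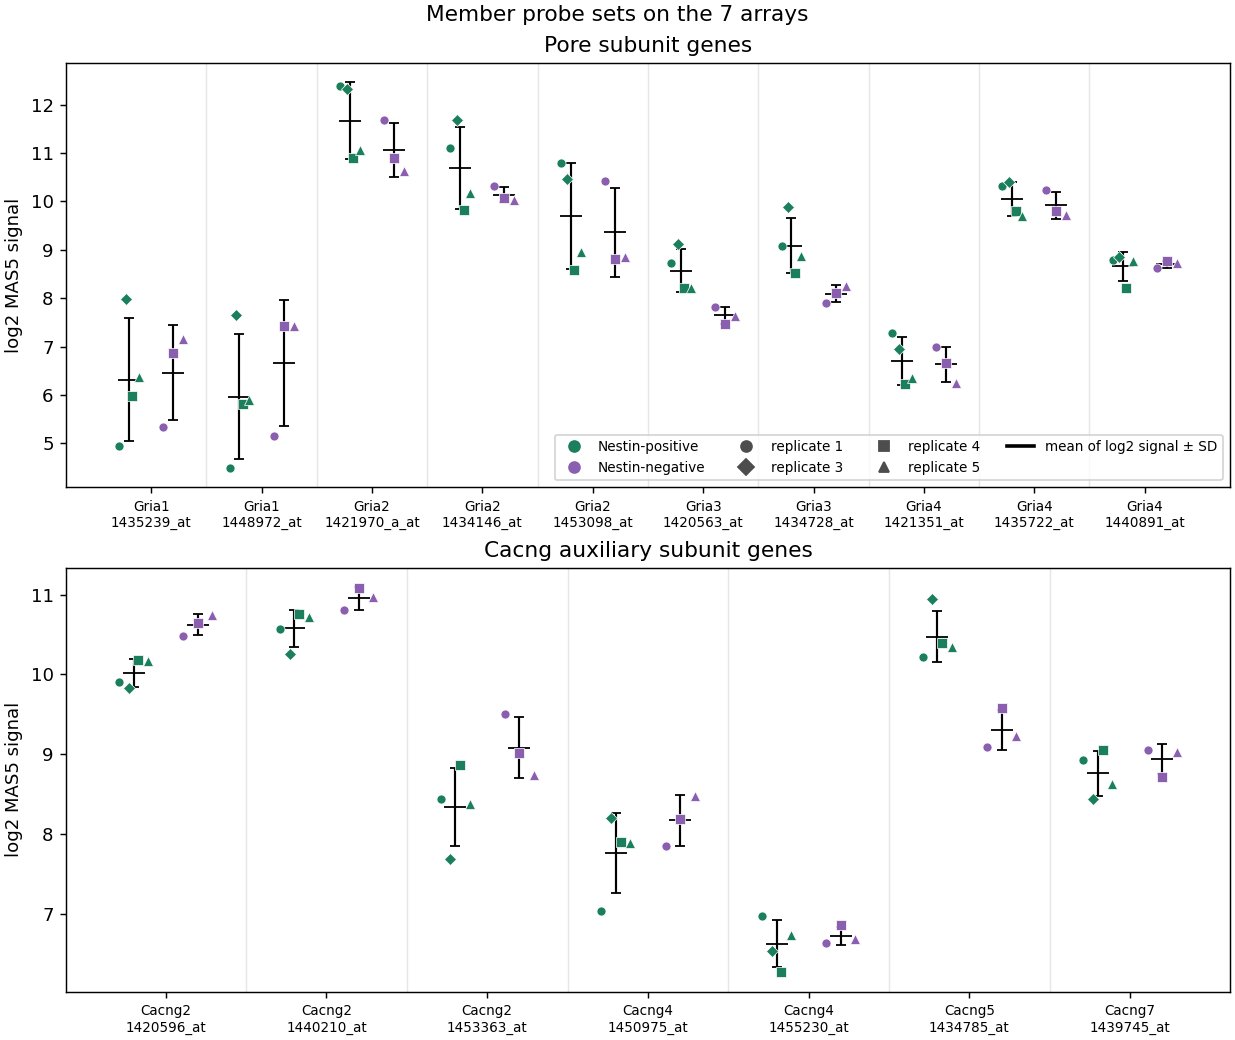
Log2 MAS5 signal (vertical axis) of the 17 member probe sets above the filter (horizontal axis), pore subunit genes above and Cacng genes below, with 4 Nestin-positive (green) and 3 Nestin-negative (purple) arrays, a marker shape for each replicate number, and the mean ± SD of each group as bars. The fractions do not overlap for Cacng5, for both Gria3 probe sets and for 1420596_at and 1440210_at of Cacng2, while Gria1 and Gria2 vary more between replicate numbers than between fractions.

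Cacng5 had the highest difference of the member genes. Its probe set 1434785_at read 1192, 1974, 1346 and 1299 on Nestin-positive replicates 1, 3, 4 and 5 and 545, 764 and 601 on Nestin-negative replicates 1, 4 and 5. Every Nestin-positive array lay above every Nestin-negative array, and replicate 3 was the brightest. The means were 1453 ± 354 (SD, n = 4) and 637 ± 113 (SD, n = 3), a log2 difference of 1.18 ± 0.20 (SE) or 2.26-fold. Within same-numbered samples the log2 difference was 1.13, 0.82 and 1.11 for replicates 1, 4 and 5. The difference lay between 1.02 and 1.31 under 13 other ways of processing, which included leaving out each array in turn. The block and leaving out Nestin-positive replicate 3 gave the same value, 1.02. A floor at the array median, averaged probe sets and no filter left it at 1.18. The other probe set of the gene, 1426330_at, read 8.68 to 29.1 on the 7 arrays.

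The start of Cacng5 is shown because this gene carries the largest difference among the 8, and that of Gria4 because Gria4 differed little. Both are the 250 bases before an annotated start, outside the annotated gene, from RefSeq on GRCm38.p6, minus strand, at chr11:107915056-107915305 for Cacng5 and chr9:4796235-4796484 for Gria4. Capitals mark exact matches, on either strand, to a GC box (CCCGCCC) or an E-box of the kind bound by proneural factors (CAGNTG).
Cacng5: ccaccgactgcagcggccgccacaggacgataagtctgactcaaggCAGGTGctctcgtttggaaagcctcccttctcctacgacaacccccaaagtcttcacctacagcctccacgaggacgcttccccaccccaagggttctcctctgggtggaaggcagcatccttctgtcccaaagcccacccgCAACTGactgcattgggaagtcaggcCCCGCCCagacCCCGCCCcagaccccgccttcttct
Gria4: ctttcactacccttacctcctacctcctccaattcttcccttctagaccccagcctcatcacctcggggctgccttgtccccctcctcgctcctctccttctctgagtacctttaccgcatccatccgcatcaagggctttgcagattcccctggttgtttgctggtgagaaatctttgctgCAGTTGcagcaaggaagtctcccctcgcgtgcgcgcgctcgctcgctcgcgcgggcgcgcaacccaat
The Cacng5 stretch holds 2 GC boxes and 2 E-boxes, none overlapping, and 12 CpG dinucleotides at 62% GC. The Gria4 stretch holds 0 GC boxes, 1 E-box and 16 CpG dinucleotides at 58.8% GC. Neither holds the Gli motif GACCACCCA. The window of a second annotated start of Cacng5, which lies inside the annotated gene and is not shown, has 0 GC boxes, 1 E-box and 2 CpG dinucleotides at 56.8% GC in the same length, and which start is used in these cells was not tested. Over all 32851 windows of this length, 23.4% held a GC box, 44.8% the E-box and 0.225% the Gli motif, with a median of 6 CpG dinucleotides and 52.4% GC. A match describes letters and not a bound site.

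Gria3, a pore subunit gene, was also higher in Nestin-positive cells. Probe set 1434728_at read 543, 942, 369 and 466 on Nestin-positive replicates 1, 3, 4 and 5 and 239, 277 and 306 on Nestin-negative replicates 1, 4 and 5. These groups did not overlap, and the step from the dimmest Nestin-positive array to the brightest Nestin-negative one was from 369 to 306. The log2 difference was 1.00 ± 0.29 (SE). Within same-numbered samples it was 1.18, 0.41 and 0.61 for replicates 1, 4 and 5. The difference was 0.73 in the blocked fit, which takes no part of the contrast from Nestin-positive replicate 3, the brightest array for this gene. The second probe set, 1420563_at, read 426, 556, 295 and 298 on Nestin-positive replicates 1, 3, 4 and 5 and 227, 178 and 198 on Nestin-negative replicates 1, 4 and 5. It gave a log2 difference of 0.93 ± 0.25 (SE), again without overlap, so both probe sets of the gene described the same direction and size.

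Gria2, the subunit that limits calcium entry, differed more between replicate numbers than between fractions. Probe set 1421970_a_at read 5328, 5117, 1900 and 2136 on Nestin-positive replicates 1, 3, 4 and 5. It read 3295, 1894 and 1572 on Nestin-negative replicates 1, 4 and 5. Replicate 1 of both fractions and Nestin-positive replicate 3 read highest, the other 4 arrays read lower, all 7 lay above the array median, and the groups overlapped. Replicate 1 was 2.80-fold above replicate 4 in Nestin-positive and 1.74-fold in Nestin-negative cells. The log2 difference between fractions was 0.60 ± 0.42 (SE), and 0.69, 0.01 and 0.44 within replicates 1, 4 and 5. In the blocked fit it was 0.38 ± 0.13 (SE). Probe set 1453098_at showed the replicate pattern more steeply, with replicate 1 at 4.61-fold and 3.07-fold the signal of replicate 4 in Nestin-positive and Nestin-negative cells, and a difference between fractions of 0.34 ± 0.60 (SE). Probe set 1434146_at had the pattern on Nestin-positive arrays, 2203 and 3267 on replicates 1 and 3 against 899 and 1147 on replicates 4 and 5. Its Nestin-negative arrays lay close together, at 1279, 1081 and 1038. The highest arrays for 1421970_a_at were those with the higher array median. Quantile normalization, which gives all arrays the same distribution, left the ratio of replicate 1 to replicate 4 at 3.09-fold in Nestin-positive and 1.83-fold in Nestin-negative cells.

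Gria4, a pore subunit with fast kinetics, showed little difference between the fractions. Its brightest probe set, 1435722_at, read 1272, 1347, 896 and 836 on Nestin-positive replicates 1, 3, 4 and 5 and 1207, 896 and 844 on Nestin-negative replicates 1, 4 and 5. As for Gria2, replicate 1 of both fractions and Nestin-positive replicate 3 were above the rest, and same-numbered samples were nearly equal, with log2 differences of 0.07, 0.00 and -0.01. The difference between fractions was 0.13 ± 0.21 (SE), 0.07 ± 0.34 for 1421351_at and -0.05 ± 0.18 for 1440891_at. Probe set 1421351_at spanned 75.4 to 155 over the arrays, close to the array medians.

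Gria1, the pore subunit best known for its insertion at synapses during plasticity, was the member with the largest spread between arrays. Probe set 1435239_at read 30.6, 253, 63.4 and 82.6 on Nestin-positive replicates 1, 3, 4 and 5 and 40.4, 117 and 143 on Nestin-negative replicates 1, 4 and 5. It lay below the array median on replicate 1 of both fractions and on Nestin-positive replicate 4, and the groups overlapped over most of their range. The log2 difference was -0.14 ± 0.71 (SE). Its sign was positive without Nestin-positive replicate 1, where it was 0.32, and also without Nestin-negative replicate 4 or 5. Within same-numbered samples, Nestin-positive cells were lower in all 3 pairs, by log2 differences of -0.40, -0.88 and -0.80. The pairs of replicates 1 and 4 include arrays below their median, so the sizes there are uncertain. The second probe set, 1448972_at, read 22.6, 202, 56.5 and 59.2 in Nestin-positive samples 1, 3, 4 and 5 and 35.4, 171 and 171 in Nestin-negative samples 1, 4 and 5. All but the readings of 202 and 171 were under the median of their array, which touches each of the 3 pairs, so no sizes are given for them.

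The arrays with bright Gria1 were those with bright markers of Bergmann glia and astrocytes. The 12 markers, Slc1a3, Gdf10 and Aqp4 among them, had a mean log2 signal relative to all arrays of -1.06, 0.86, 0.00 and 0.05 on Nestin-positive replicates 1, 3, 4 and 5, and of -0.99, 0.64 and 0.51 on the Nestin-negative replicates. They summed to signals of 11706 to 37781 on Nestin-positive and 9133 to 26446 on Nestin-negative arrays, and 11 or 12 of the 12 lay at or above the median of each array. Between the fractions these markers went both ways, with 5 positive and 7 negative differences in the gene fit. With the block, Gdf10 and Slc1a2 were called higher and Aqp4, Aldh1l1, Hopx, Fabp7 and Aldoc lower. The array with the highest marker mean, Nestin-positive replicate 3, had the highest Gria1 signal, and the pair of arrays with the lowest marker mean had the lowest. The part of these markers' cells in the Gria1 signal was not tested. Within the Nestin-positive fraction Cacng5 too was lowest on replicate 1 and highest on replicate 3. In the Nestin-negative fraction it read 545, 601 and 764 on replicates 1, 5 and 4, the order of their marker means. Across the fractions this order did not hold. On Nestin-positive replicates 4 and 5, with marker means of 0.00 and 0.05, Cacng5 read 1346 and 1299. On Nestin-negative replicates 4 and 5 the marker means were higher, 0.64 and 0.51, and Cacng5 was lower, at 764 and 601. The part of the markers' cells in the Cacng5 signal was not tested.

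**Figure D2:**
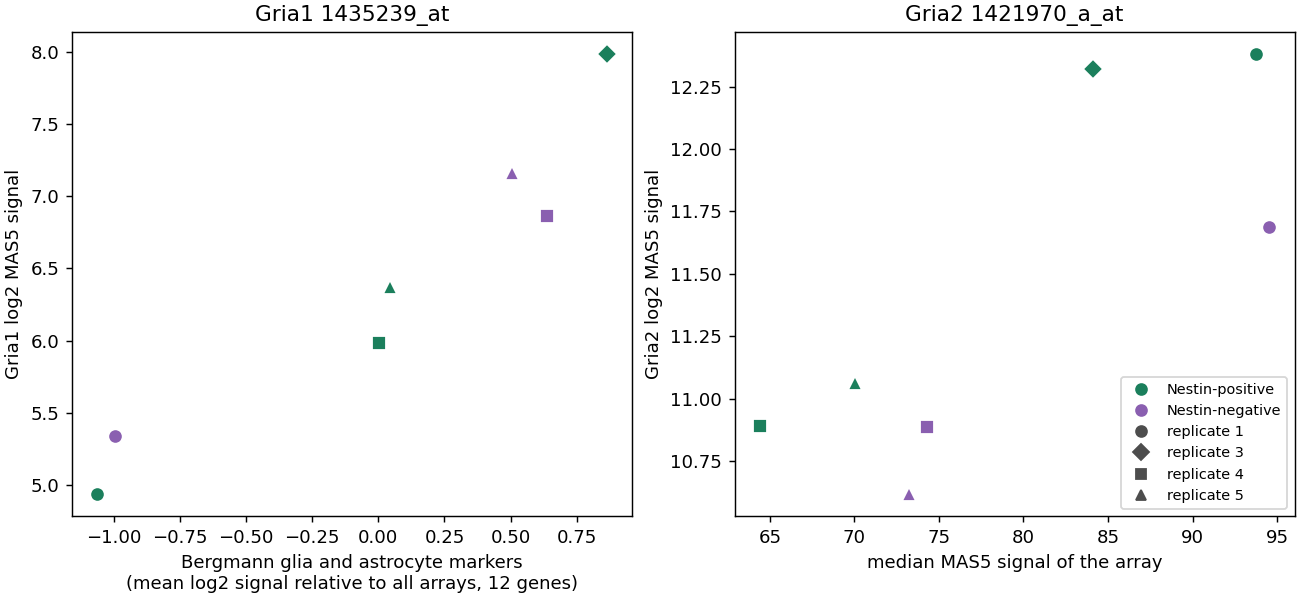
Left, Gria1 log2 signal (probe set 1435239_at) against the mean log2 signal of 12 Bergmann glia and astrocyte markers relative to all arrays. Right, Gria2 log2 signal (1421970_a_at) against the median MAS5 signal of the array, with 1 point per array, colour for the fraction and shape for the replicate number. Gria1 is highest on Nestin-positive replicate 3 and lowest on replicate 1 of both fractions, and the 3 arrays with medians of 84.1 to 94.5 have the 3 highest Gria2 signals.

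The spread between arrays of a fraction separated the members. The pooled SD within fractions, on the log2 scale, was 1.16 for Gria1 and 0.71 for Gria2, larger than for 98.8% and 96.0% of the genes tested. It was 0.46 for Gria3, 0.44 for Cacng4, 0.32 for Gria4, 0.30 for Cacng5, 0.25 for Cacng7 and 0.20 for Cacng2, against a median of 0.22 over all genes. The difference between fractions was 3.98 times this SD for Cacng5, 2.17 times for Gria3 and 1.91 times for Cacng2, and below the SD for each of the other 5 members.

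Cacng2, the stargazin gene, was lower in Nestin-positive cells on all of its 3 probe sets. Probe set 1440210_at, the brightest, read 1517, 1223, 1739 and 1685 on Nestin-positive replicates 1, 3, 4 and 5 and 1789, 2176 and 2011 on Nestin-negative replicates 1, 4 and 5. A narrow gap separated the fractions, by 1739 against 1789, and the log2 difference was -0.38 ± 0.15 (SE). Probe set 1420596_at read 960, 910, 1156 and 1148 on Nestin-positive and 1430, 1605 and 1710 on Nestin-negative arrays in the same order. Its fractions were clearly apart, with a log2 difference of -0.60 ± 0.13 (SE) and of -0.57, -0.47 and -0.58 within replicates 1, 4 and 5. The dimmer 1453363_at had overlapping fractions and a log2 difference of -0.74 ± 0.29 (SE). Beside this, 15 of 18 markers of differentiating granule neurons, Mapt, L1cam and Neurod2 among them, lay at or above the median of every array. Gabra6, Gabrd and Cbln3, which mark mature granule neurons, lay below it on all 7. The 18 markers summed to 34019 to 44425 on Nestin-positive and 53944 to 58792 on Nestin-negative arrays, and the part of more differentiated cells in the Cacng2 difference was not tested.

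Cacng4 encodes the other type I member. Probe set 1450975_at read 131, 294, 238 and 237 on Nestin-positive replicates 1, 3, 4 and 5 and 230, 290 and 356 on Nestin-negative replicates 1, 4 and 5. Both fractions overlapped, but each same-numbered pair was lower in Nestin-positive cells, by log2 differences of -0.81, -0.29 and -0.59. The difference was -0.41 ± 0.29 (SE), and -0.56 ± 0.17 (SE) in the blocked fit. Without Nestin-positive replicate 1, the dimmest array for this gene, it was -0.17. The second probe set, 1455230_at, lay near the array median at 76.7 to 125 and gave -0.10 ± 0.25 (SE), with 0.33, -0.59 and 0.05 within replicates 1, 4 and 5. Among markers of the oligodendrocyte lineage, whose precursors also carry AMPA receptors, 6 of 11 were at or above the array median on each Nestin-positive array and 7 to 9 on the Nestin-negative arrays. They summed to 6107 to 8003 and 7425 to 8781, and Mog lay below the array median on all 7 arrays. These markers went both ways, with 2 positive and 5 negative differences among the 7 in the gene fit. With the block, Olig1 and Olig2 were called higher and Gpr17 and Cnp lower. The part of these markers' cells in the Cacng4 signal was not tested.

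Cacng7, the other type II member, differed little between the fractions. Probe set 1439745_at read 486, 346, 532 and 395 on Nestin-positive replicates 1, 3, 4 and 5 and 533, 421 and 521 on Nestin-negative replicates 1, 4 and 5. Overlap between fractions was wide, and the same-numbered pairs differed in sign, at -0.13, 0.34 and -0.40. The difference was -0.17 ± 0.19 (SE). The other probe set read 47.2 to 71.5, below the median of every array.

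Over the 17 probe sets, the fractions did not overlap for 5, and the share was 12.4% over all kept probe sets with 1 gene. Of the 5, the Nestin-positive arrays lay above for 3 and below for 2, where 5.12% and 7.25% of all kept probe sets did. Those 5 belonged to Cacng5, Gria3 and Cacng2. The type I genes Cacng2 and Cacng4 had log2 differences of -0.38 and -0.41. The type II genes Cacng5 and Cacng7 had log2 differences of 1.18 and -0.17. Cacng4 and Cacng5, both on chromosome 11 in the RefSeq annotation, had differences of -0.41 and 1.18. Of the pore subunits, Gria3 and Gria2 had positive differences of 1.00 and 0.60 and Gria4 and Gria1 differences of 0.13 and -0.14.

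**Figure D3:**
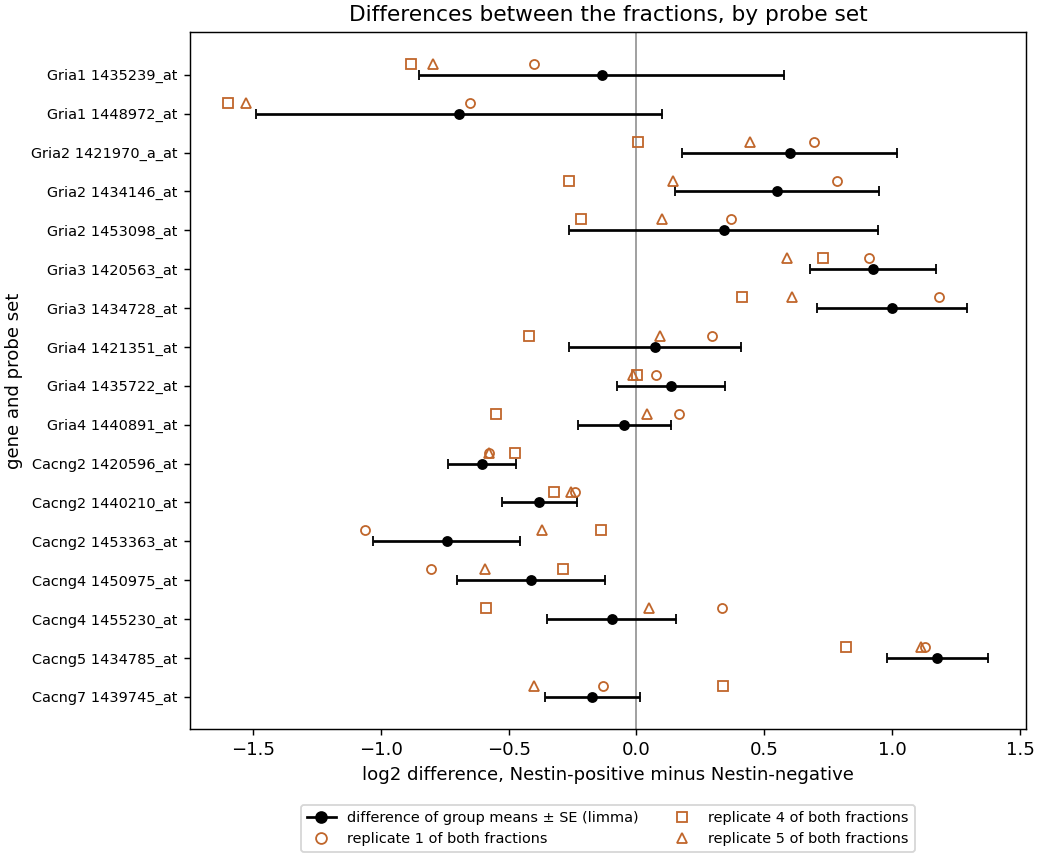
Log2 difference between Nestin-positive and Nestin-negative cells (horizontal axis) for each of the 17 member probe sets (vertical axis), as the difference of group means ± SE from limma (black) and within the 3 pairs of same-numbered samples (orange). Cacng5 and Gria3 lie to the right of 0 in every pair and Cacng2 and Gria1 to the left (4 of the 7 Gria1 signals of 1448972_at lie below the array median), while the pairs of Gria4 and Cacng7 lie on both sides.

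The other Cacng genes were at low signal. Cacng1, Cacng3 and Cacng6 lay below the array median on all 7 arrays, with signals of 1.36 to 53.3. Cacng8, which encodes a type I protein abundant in the hippocampus, read 128 to 187 on 1459579_at, with a log2 difference of -0.06 ± 0.21 (SE) (limma, adjusted p = 0.919). Its other probe set, 1451864_at, read 2.77 to 39.1, below the array median on all 7 arrays.

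Lists of other genes that assemble, anchor or regulate AMPA receptors held 89 genes, of which 65 were measured. Of these, 14 had positive and 51 negative log2 differences, with a median of -0.26 against -0.03 over all genes tested. Beside this, all 15 measured markers of differentiating granule neurons had negative differences, with a median of -0.74, and limma called 4 of them lower, or 12 with the block. The part of more differentiated cells in the values of these lists was not tested. Limma called 2 of the 65 lower and 0 higher, where it called 0.577% of all genes lower and 0.171% higher, and 24 of the 65 had an unadjusted p under 0.05, as did 14.4% of all genes tested. With the replicate block it called 16 lower and 3 higher, where it called 6.39% and 3.58% of all genes. The block fit rests on 3 pairs, and its p-values here and below lean mostly on variance shared across genes. Both genes called without the block belong to the kinase and trafficking list. Camk2d, a subunit of the calcium and calmodulin-dependent kinase that phosphorylates AMPA receptors, read 326, 300, 289 and 353 on Nestin-positive replicates 1, 3, 4 and 5 and 616, 562 and 495 on Nestin-negative replicates 1, 4 and 5. Its log2 difference was -0.81 ± 0.15 (SE) (adjusted p = 0.0403). Prkcb, a protein kinase C gene, was lower by a log2 difference of -0.68 ± 0.13 (SE) (limma, adjusted p = 0.0499), with 3117 to 4055 on Nestin-positive and 5237 to 6553 on Nestin-negative arrays. Both calls were lost on leaving out any of the 7 arrays, with quantile normalization, without the filter on low values and with averaged probe sets. The adjusted p over 13 alternatives lay between 0.00105 and 0.345 for Camk2d and between 0.000903 and 0.181 for Prkcb, with the lowest values from the replicate block. Ppp3ca, the catalytic subunit of calcineurin, followed in this list (-0.43 ± 0.11, limma, adjusted p = 0.0993; 0.0119 with the block).

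Among 12 measured auxiliary and assembly genes, 5 had positive and 7 negative differences, and limma called 0 (6 at an unadjusted p under 0.05). With the block, Gsg1l and Frrs1l rose, and Prrt1, Porcn, Abhd12 and Olfm1 fell. Gsg1l, whose protein slows recovery of the channel from desensitisation, read 3201 to 3562 on Nestin-positive and 2565 to 2749 on Nestin-negative arrays (log2 difference 0.33 ± 0.10 SE, adjusted p = 0.157, and 0.0269 with the block). Frrs1l, which acts in receptor assembly, had a block adjusted p of 0.0415 and overlapping fractions. Porcn and Prrt1, found in native AMPA receptor complexes, were 1.92-fold and 2.01-fold lower without the block (limma, adjusted p = 0.0993 and 0.104; 0.00128 and 0.0028 with it; Porcn alone of the 65 passed without Nestin-positive replicate 4, at 0.0413).

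Of 27 measured scaffold and synaptic adhesion genes, 22 had negative differences (median -0.26). Limma called 0 (8 at an unadjusted p under 0.05), and with the block 4 fell, Dlg2, Dlgap1, Epb41l1 and Lrrtm2. Epb41l1, which encodes a cytoskeletal protein that binds the Gria1 subunit, read 487 to 1085 on Nestin-positive and 1440 to 1802 on Nestin-negative arrays (log2 difference -1.07 ± 0.24 SE, limma, adjusted p = 0.0845; 6.56e-05 with the block). Dlgap1 and Lrrtm2, a postsynaptic scaffold and an adhesion protein, had log2 differences of -0.61 ± 0.15 (SE) and -0.63 ± 0.19 (SE).

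In the list of delta receptors, cerebellins and neurexins, 5 of 9 genes were measured and limma called 0 (4 at an unadjusted p under 0.05). With the block, Cbln1, Nrxn2 and Nrxn3 fell and Cbln4 rose. Cbln1, secreted by granule neurons to bridge neurexin and the delta receptor of Purkinje cells, read 3276 to 3628 on Nestin-positive and 4508 to 5064 on Nestin-negative arrays (log2 difference -0.43 ± 0.10 SE, adjusted p = 0.0934; 0.00786 with the block). Cbln4, another cerebellin, went the other way (0.67 ± 0.16 SE, adjusted p = 0.0938; 0.0019 with the block). Nrxn2 had a log2 difference of -0.71 ± 0.15 (SE) (adjusted p = 0.0752; 0.00128 with the block). The RNA editing genes had no call with or without the block. Adarb1, whose enzyme edits Gria2 RNA, differed by -0.45 ± 0.30 (SE), Adar by -0.11 ± 0.18 (SE) and Adarb2 by 0.27 ± 0.29 (SE). The Adarb1 signal was dim, at 61.5 to 131, and below the array median on 2 Nestin-positive arrays.

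**Figure D4:**
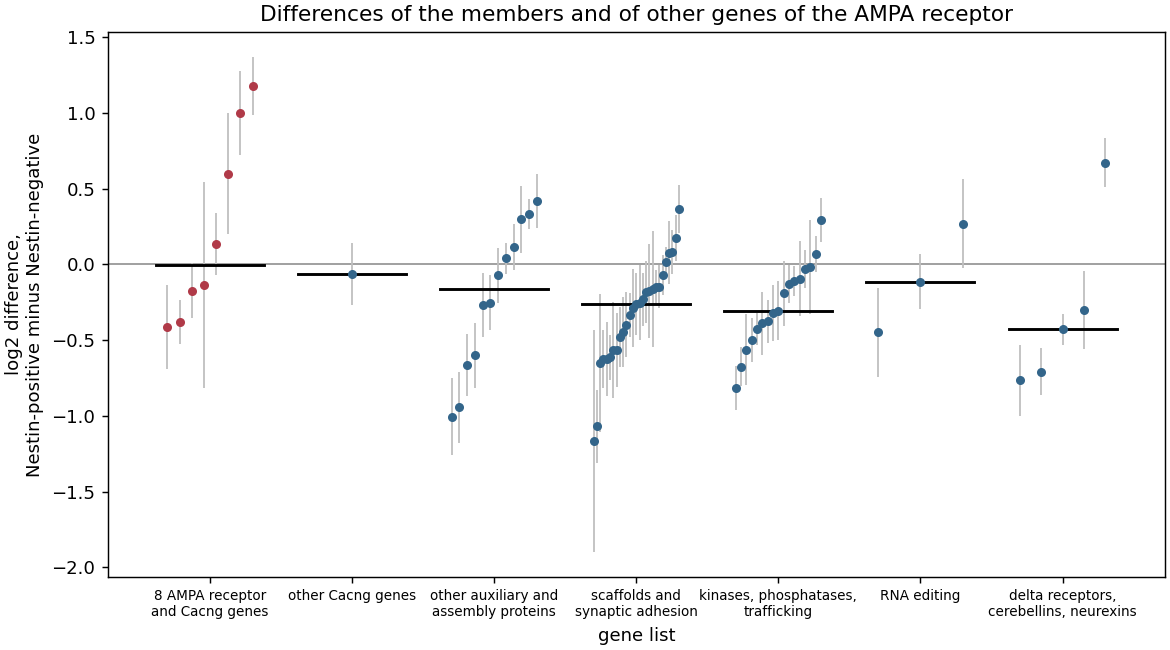
Log2 difference between the fractions (vertical axis, ± SE from limma) for the 8 members (red) and for 65 other genes of the AMPA receptor by list (blue, horizontal axis), with a black bar at the median of each list. The scaffold and kinase lists have medians of -0.26 and -0.31, and the 8 members spread from -0.41 to 1.18 around a median of 0.00.

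By Pearson correlation of log2 signal over the 7 arrays, a description that includes the difference between fractions, the genes most like Cacng5 were Jag1 (r = 0.99) and Antxr1 (r = 0.99). Those most like Gria3 were Nipbl and Dtl, those most like Gria2 were Ccpg1 and Mysm1, and those most like Gria4 were Pcdh9 and Ndufs1 (each r = 0.99 or above). Cacng2 was most like Doc2b and Fgfr3, Gria1 most like Dleu7 and Itga6, Cacng4 most like S1pr1 and 4922502B01Rik, and Cacng7 most like Pcbp3 (r = 0.97) and Stim1 (r = 0.96). The arrays share cells, depth and scaling across genes, and over so few arrays many genes reach high correlations.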

How the data were processed

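RNA from 7 sorted samples, was measured on 1-colour arrays. The authors deposited linear MAS5 signal intensity (named in the submitters' processing notes), with the version not given in the sources used here. Each array's mean signal without the lowest and highest 2% was 500, read from the deposited values. Subtraction of mismatch signal makes low values noisy.

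Of 45101 probe sets, 64 controls were left out. The platform annotation gave 1 gene for 34945 (34741 matched by Entrez ID to RefSeq, GRCm38.p6, for current symbols), several for 932 and none for 9160. Log2 was taken without a pseudocount. Probe sets at or above the array median on at least 3 arrays were kept (20162 with 1 gene), and the brightest stood for its gene in a fit of 11089 genes. A second fit over the kept probe sets gave the differences and SE of members. It called 0 probe sets at an adjusted p of 0.05 (2234 unadjusted). Groups come from sample titles. Limma 3.58.1 in R 4.3.3 (intensity trend, two-sided, Benjamini-Hochberg) was used on all 7 arrays without covariates and was tested on simulated data.

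Replicate numbers 1, 4 and 5 occur in both fractions. Deviations from group means correlated over genes with r = 0.71, 0.39 and 0.47 for same-numbered arrays, and the numbers were taken to pair the samples from these data, not from the labels. Nestin-negative replicate 5 correlated above 0.1 with Nestin-positive replicates 3 and 4 as well (0.14 and 0.19). The block fit rests on 3 pairs. Limma borrows variance across genes, and the median degrees of freedom after this step were 19.79 with the block and 9.784 without it. The small p-values of the block fit therefore lean mostly on the shared variance. Genes named are the members, called or up to 3 lowest-p genes of each pathway list (block calls beside them were added after their values were seen), the 2 genes most like each member, and Nes. Members and lists were chosen with earlier results of these data known. Alternatives covered the block, each array left out, quantile normalization, the filter, a floor, a pseudocount of 32 and averaged probe sets.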

Additional observations from a re-analysis of the deposited data

Results flagged for a closer look

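Of the 17 member probe sets tested for an array far from the others of the Nestin-positive fraction, 1 stood out. For Gria4 probe set 1440891_at, Nestin-positive replicate 4 read 297, where the rest of that fraction read 435 to 463. On the log2 scale, the gap to the nearest array was 0.86 of the whole range. Chance gives such a mark in about 1 of 20 groups, and the other Gria4 probe sets did not set this array apart.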

How the results depend on the processing

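The log2 differences of Gria2, Gria3, Gria4, Cacng2, Cacng4, Cacng5 and Cacng7 kept their sign under all 13 alternatives, and each of the 8 members moved by less than its SD within fractions. The sign of Gria1 changed in 3, with values between -0.70 and 0.32. Not all 13 were separate checks. For each member the block gave the same difference as leaving out Nestin-positive replicate 3, and the fit without the filter gave the main value. The floor moved only Gria1, and averaging could not move Cacng5 and Cacng7, which had 1 kept probe set each. Counts of calls moved far more. The 83 genes called became 1106 with the replicate block, 22 with quantile normalization, 52 without the filter (more genes tested) and 43 with averaged probe sets, and 0 to 97 with 1 array left out. Limma called 0 on dropping Nestin-positive replicate 5, where 1320 genes had an unadjusted p under 0.05, or Nestin-negative replicate 4, where 1158 did. The 2 pathway genes called became 19 with the replicate block and 0 with quantile normalization, without the filter or with averaged probe sets, and 0 to 1 with 1 array left out, the 1 being Porcn without Nestin-positive replicate 4. The 0 probe sets called became 981 with the replicate block and 3 with values raised to the array median, and stayed 0 with each array left out. The cause was not tested. Signals under the array median limit what can be said of Gria1 on replicate 1 and of the dimmer Cacng5 and Cacng7 probe sets. The quantile-normalized Gria2 ratios were chosen after seeing the data.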
